A study of Mus musculus with 20 samples.

Results

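The pro-apoptotic members of the Bcl2 family were followed in LSK and MEP cells of mice lacking *Bcor*, *Dnmt3a* or both genes. The 10 genes were chosen by name, with earlier results of these data known, out of 24315 genes in each table. They are 3 effectors (*Bax*, *Bak1* and *Bok*) and 7 BH3-only genes (*Bid*, *Bcl2l11*, *Bad*, *Bbc3*, *Pmaip1*, *Bmf* and *Bik*). LSK are lineage-negative, Sca1-positive, c-Kit-positive bone marrow cells, a gate that holds stem and multipotent progenitor cells, and MEP are megakaryocyte-erythroid progenitors. Of the 10 libraries of each cell type, 3 were WT mice with untargeted genes, 3 *Dnmt3a-/-*, 2 *Bcor-/-* and 2 *Bcor-/-Dnmt3a-/-* (double knockout), all on C57BL/6. In the study's mice the deletions were made by Mx1-Cre after pIpC injection, which acts in interferon-responsive cells of many tissues, and the *Bcor* allele loses its exons 8 to 10. The labels name Cre in every library of a mutant genotype and in no WT library. In comparisons with WT an effect of Cre itself therefore cannot be told apart from that of the deletions. In LSK as in MEP, 1 of the *Bcor-/-* libraries carries the names of 2 mice and every other library that of 1 mouse, and LSK and MEP came from the same mice. The labels give neither age nor disease stage, while the paper describes the double knockout mice of the RNA-seq comparison as leukemic.

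BAX and BAK, the products of *Bax* and *Bak1*, form pores in the outer mitochondrial membrane, through which cytochrome c leaves and activates caspases. BH3-only proteins carry stress signals to this step, some by activating BAX and BAK directly. All of them bind some or all of the anti-apoptotic proteins BCL2, BCL-XL, MCL1 and A1, which otherwise hold the effectors in check. In blood cells BIM, the product of *Bcl2l11*, limits the number of lymphoid and myeloid cells, PUMA (*Bbc3*) and NOXA (*Pmaip1*) are targets of p53, and BCL-XL keeps maturing erythroid cells alive.

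Values are FPKM, fragments scaled to the length of the transcript and to the size of the library, which can be compared between genes because they are scaled by length. Read counts are not given, so depth is unknown, apart from steps of the low values, by which the depth relative to WT replicate 1 was 0.790 to 1.32 for LSK libraries and 1 to 1.61 for MEP libraries. The 2 double knockout libraries resembled each other less than other replicates did, with a Pearson's r across genes of 0.849 in LSK and 0.815 in MEP, where replicates of the other genotypes had at least 0.973 and 0.971. Genes are not independent replicates. The deleted genes did not settle the labels, since 1 double knockout library had *Bcor* RNA above WT in LSK and 1 had *Dnmt3a* RNA above WT in MEP. *Bcor* lay below every WT library in *Bcor-/-* LSK (22.4 and 23.2 FPKM, WT 29.5 to 32.4). *Dnmt3a* did in double knockout LSK (10.4 and 10.9, WT 16.1 to 19.9) and in *Dnmt3a-/-* MEP (2.56 to 5.40, WT 5.49 to 6.64). *Bcor* in *Bcor-/-* MEP and double knockout MEP, and *Dnmt3a* in *Dnmt3a-/-* LSK, overlapped WT. Marker genes of other cells moved with the double knockout. In LSK the summed level of 9 markers of the LSK gate was 182 and 374 FPKM against 1114 to 1300 in WT, 7 of them called lower. The sum of 14 erythroid markers was 6470 and 24079 FPKM there against 87.6 to 184 in WT, with 13 called higher, and that of 5 B cell markers was 1544 and 1119 against 34.7 to 65.3, with 3 called higher of the 3 that reached the minimum without the double knockout. The sum of 6 megakaryocyte markers was 14.3 and 49.5 FPKM against 97.4 to 117, with 4 called lower, and that of 6 macrophage markers was 1360 in replicate 1 and 109 in replicate 2 against 55.4 to 274. The sum of 6 T and NK cell markers was 102 and 332 FPKM, on either side of WT (211 to 239). Of the 2 that reached the minimum without the double knockout, 1 was called higher and 1 lower. *Cd3e*, which reached it only with the double knockout, had 8.03 and 20.4 FPKM there against at most 0.517 in WT. *Cd34* fell to 5.87 and 37.3 FPKM from at least 548 in WT LSK, and *Kit* had 47.7 and 19.4 against at least 147.8. *Ly6a*, the gene of Sca1, did not fall, at 63.5 and 220 FPKM with WT at 59.8 to 70.7. In these bulk samples a change in the mix of cells and a change in RNA per cell cannot be told apart.

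In WT LSK the members fell into a high group and a low group. *Bak1* (45.3 ± 4.11 FPKM, SD, n = 3) and *Bax* (45.0 ± 2.23) stood at the top and their values overlapped. They were followed by *Bid* (35.3 ± 0.460), whose product is cut by caspase 8 and links death receptors to mitochondria, then by *Bad* (23.1 ± 2.79), which survival kinases silence, and by *Bcl2l11* (14.5 ± 3.58). *Pmaip1* (4.77 ± 0.429), *Bbc3* (4.29 ± 0.784) and *Bok* (4.25 ± 0.696) lay lower and each overlapped its neighbour in this order. *Bmf*, whose product is held at the cytoskeleton until stress frees it, had 1.22 ± 0.146 FPKM, and *Bik*, a BH3-only gene of the endoplasmic reticulum, was listed at 0 in 2 of 3 WT libraries and at 1.13 in the other one. In WT MEP the order of the upper members was *Bax* (93.9 ± 17.1), *Bak1* (63.4 ± 7.58), *Bid* (46.9 ± 2.19), *Bad* (33.3 ± 4.49) and *Bcl2l11* (10.6 ± 1.30), with no overlap between neighbours. *Bbc3* (5.36 ± 1.30) and *Pmaip1* (2.97 ± 1.28) came next, and *Bik* (1.32 ± 0.358), *Bok* (0.757 ± 0.627) and *Bmf* (0.478 ± 0.0153) overlapped at the bottom. The tables of the cell types were made separately, and levels were therefore not tested between LSK and MEP.

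**Figure D1:**
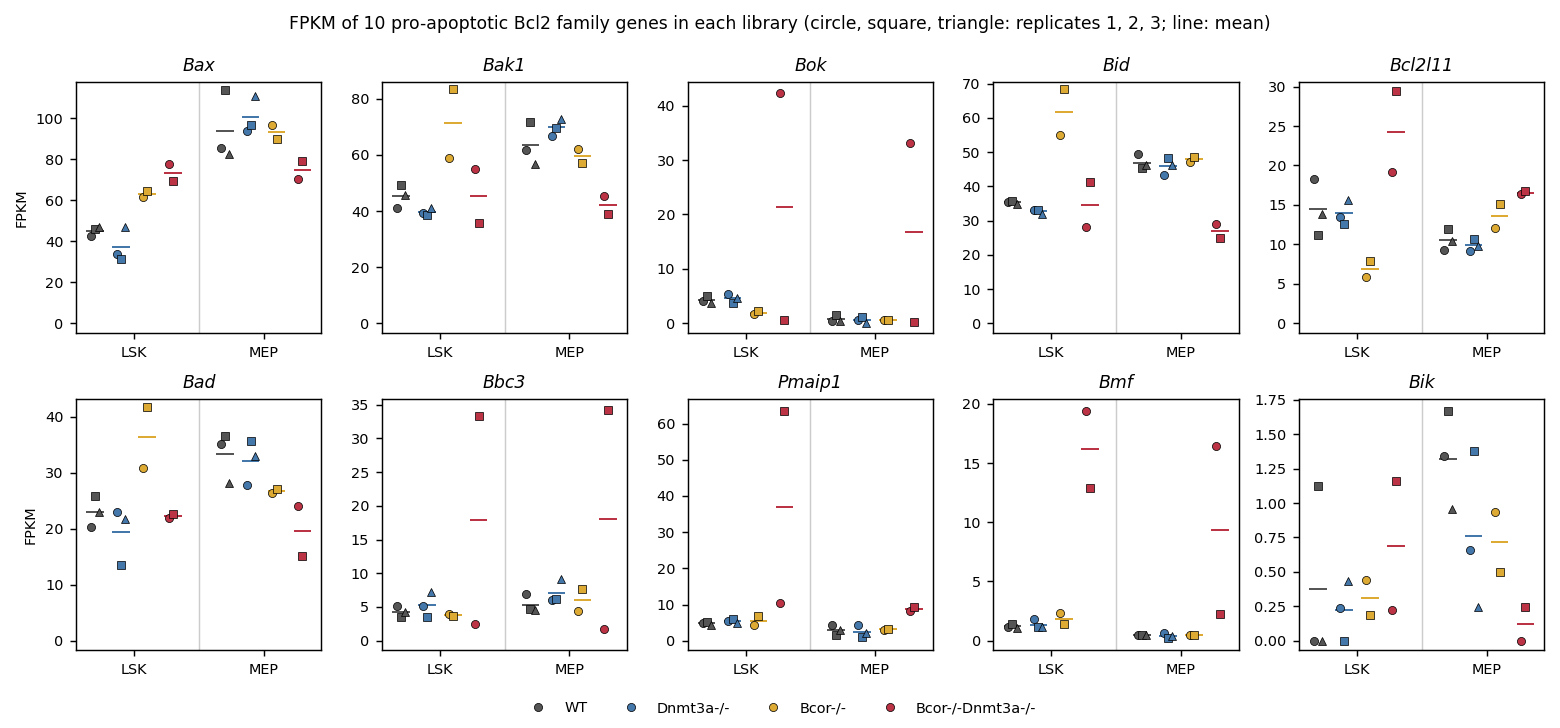
FPKM of each of the 10 members in every library, with LSK on the left and MEP on the right of each panel, colours for the genotypes, symbols for the replicates and a line at each group's mean, each panel on its own linear axis. Some libraries of the double knockout stand far from the others: *Pmaip1* reaches 63.6 FPKM in LSK of replicate 2, *Bok* 42.3 and 33.1 FPKM in replicate 1 alone, *Bbc3* 33.4 and 34.2 in replicate 2 alone, and *Bmf* 19.4 and 12.9 in LSK, against at most 2.31 in any LSK library of the other genotypes.

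The promoters of *Bmf*, *Bok* and *Bbc3* are shown, a choice made after the values were seen, because *Bmf* was higher than in WT in every double knockout library and *Bok* and *Bbc3* were each high in 1 of the double knockout mice. Each is the RefSeq sequence of the 250 bases before the gene's start on build GRCm38.p6, read 5′ to 3′ on the gene's strand, and capitals mark CpG, the dinucleotide that DNMT3A methylates. *Bmf* was taken from chr2:118549687-118549936 on the minus strand, *Bok* from chr1:93685325-93685574 on the plus strand and *Bbc3* from chr7:16310181-16310430 on the plus strand. The first bases after the *Bok* window were found in none of its GENCODE transcripts.
Bmf: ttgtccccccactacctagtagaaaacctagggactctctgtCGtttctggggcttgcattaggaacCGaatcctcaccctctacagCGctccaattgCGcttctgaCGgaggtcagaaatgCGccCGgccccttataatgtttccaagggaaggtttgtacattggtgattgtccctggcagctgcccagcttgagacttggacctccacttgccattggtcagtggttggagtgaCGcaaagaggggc
Bok: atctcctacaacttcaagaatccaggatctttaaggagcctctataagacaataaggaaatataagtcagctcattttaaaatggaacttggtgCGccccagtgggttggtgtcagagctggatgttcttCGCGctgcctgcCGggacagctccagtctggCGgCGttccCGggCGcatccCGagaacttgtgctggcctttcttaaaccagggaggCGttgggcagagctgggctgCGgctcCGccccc
Bbc3: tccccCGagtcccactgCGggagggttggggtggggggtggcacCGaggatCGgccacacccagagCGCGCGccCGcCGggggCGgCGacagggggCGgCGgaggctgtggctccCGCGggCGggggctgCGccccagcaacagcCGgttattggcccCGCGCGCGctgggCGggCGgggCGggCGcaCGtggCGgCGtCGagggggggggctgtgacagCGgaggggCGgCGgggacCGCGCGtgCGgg
Of the 10 members 8 had a promoter that could be used, with *Bik* and *Pmaip1* not analysed here. *Bmf* holds 8 CpG in its 250 bases, *Bok* 12 and *Bbc3* 37, where the median over 32851 RefSeq promoters of this length is 6 and 2.2% hold at least as many as *Bbc3*. The others ranged from 8 in *Bak1* to 24 in *Bcl2l11*. These members therefore do not share a CpG count, and methylation was not measured in these libraries. On either strand, the letters AGATAA, bound by GATA factors, occur in 0 of the 8 promoters and in 9.99% of all promoters, CCACCC, bound by KLF factors, in 2 of 8 (*Bcl2l11* and *Bbc3*) and in 28.1%, and the E-box CACGTG in 2 of 8 (*Bax* and *Bbc3*) and in 6.02%. Such matches describe this window and show no binding.

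Values were compared as log2(FPKM + 1) in 1 limma model per cell type, fitted to every gene whose mean reached 1 FPKM. A gene was called, and is said to have risen or fallen, where the two-sided p before adjustment was under 0.05 and the fold change over 1.5. The adjustment followed Benjamini and Hochberg and took in all genes of the fit. The added 1 makes fold changes of low genes smaller than the ratio of their FPKM. *Bik* was not tested in either cell type, and *Bok* and *Bmf* passed the minimum in MEP only through the double knockout libraries, where they were high. An exact permutation test of 2 libraries against 3 cannot give a p below 0.1.

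In double knockout LSK, *Bax*, *Bcl2l11*, *Pmaip1* and *Bmf* rose and none of the tested members fell. These are 4 of 9 tested members, where 28.3% of all tested genes were called, 15.0% higher and 13.3% lower. Of the calls over all genes 53.0% were higher as deposited, 45.0% after quantile normalization and 44.2% after median centring. Among the effectors, *Bax* had 77.5 and 69.4 FPKM in the double knockout and 42.4, 45.8 and 46.7 in WT. Every double knockout value lay above every WT value, with a log2 fold change of 0.69 (SE 0.16, adjusted p = 0.012). *Bak1* had 55.1 and 35.8 FPKM on either side of WT (41.0 to 49.1), with a log2 fold change of -0.02 and a 95% interval from -0.47 to 0.42. *Bok*, a relative of BAX and BAK, was far above WT in one double knockout library and below it in the other, at 42.3 and 0.533 FPKM where WT had 4.09, 5.02 and 3.65. The first of these libraries was 9.94 times the WT mean and the second 0.125 times, and the log2 fold change of 0.64 (SE 1.05, adjusted p = 0.68) describes neither. Without double knockout replicate 1 it was -1.77 and without replicate 2 it was 3.05, and *Bok* was called in each case. The call of *Bax* was lost after quantile normalization, at a log2 fold change of 0.56, and in a fit with 1 variance per genotype (adjusted p = 0.26).

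With both double knockout libraries in the fit, *Bmf* changed most among the tested BH3-only genes. Without replicate 1 it did not, at a log2 fold change of 2.65, where *Pmaip1* had 3.49 and *Bbc3* 2.71. The level of *Bmf* was 19.4 and 12.9 FPKM in double knockout LSK, 15.9 and 10.6 times the WT mean. The WT libraries had 1.2, 1.37 and 1.08 FPKM. The log2 fold change was 2.93 (SE 0.25, adjusted p = 8.4e-05), and it was called under every alternative that tested it, from 2.65 to 3.60. *Pmaip1* had 10.4 and 63.6 FPKM, against 4.92, 5.11 and 4.29 in WT. Both lay above WT although they differed from each other, so that the log2 fold change of 2.24 (SE 0.57, adjusted p = 0.017) moved between 0.99 without replicate 2 and 3.49 without replicate 1. *Bcl2l11* had 19.2 and 29.4 FPKM, with WT at 18.3, 11.2 and 13.8. These groups were separated by less than 1 FPKM at their nearest values, the log2 fold change was 0.70 (SE 0.24, adjusted p = 0.053), and it was 0.41 and not called without double knockout replicate 2, and 0.55 and not called without WT replicate 2. Nor was it called with 1 variance per genotype (adjusted p = 0.41). *Bbc3* was the reverse of *Bok*, with 2.53 FPKM in replicate 1 and 33.4 in replicate 2, where WT had 5.08, 3.51 and 4.29. Its log2 fold change was 1.07 (SE 0.75, adjusted p = 0.32), and 2.71 and called without replicate 1 but -0.57 without replicate 2. *Bid*, at 28.1 and 41.2 FPKM, straddled WT (log2 fold change -0.05, 95% interval -0.41 to 0.31). *Bad*, at 22 and 22.6, lay within the WT range (-0.04, 95% interval -0.55 to 0.47). *Bik* was listed at 0.220 and 1.16 FPKM. Over all genes tested, 49.6% had double knockout and WT groups that did not overlap in LSK, and 4 of the 9 tested members did.

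With *Bcor* alone deleted, other members were called in LSK beside *Bcl2l11*. *Bid*, *Bak1* and *Bad* rose and *Bcl2l11* fell, 4 of 9 tested members where 13.2% of all tested genes were called, 7.20% higher and 6.03% lower. *Bid* had 55.1 and 68.3 FPKM in *Bcor-/-*, far above the narrow WT range of 34.8 to 35.7, with a log2 fold change of 0.78 (SE 0.16, adjusted p = 0.026). *Bcl2l11* had 5.91 and 7.91 FPKM, below its lowest WT value of 11.2, with a log2 fold change of -0.95 (SE 0.24, adjusted p = 0.047). *Bak1* had 58.8 and 83.7 FPKM (log2 fold change 0.62, SE 0.20, adjusted p = 0.092). *Bad* had 30.9 and 41.7 (0.62, SE 0.22, adjusted p = 0.12). The calls of *Bak1* and *Bad* were lost without *Bcor-/-* replicate 2, at 0.37 and 0.41, without WT replicate 1, at 0.55 and 0.54, and after quantile normalization, and only *Bid* and *Bcl2l11* passed with the adjusted p. *Bax*, at 61.3 and 64.3 FPKM, lay above every WT library, but its log2 fold change of 0.47 (adjusted p = 0.11) was below the fold threshold. *Bok*, at 1.61 and 2.30 FPKM, lay below every WT library (-0.83, SE 1.05), and was called in a fit of these genotypes alone, without the spread of the double knockout. *Pmaip1* (4.3 and 6.84) and *Bbc3* (4.03 and 3.70) overlapped WT, *Bmf* had 2.31 and 1.43 FPKM (0.36, adjusted p = 0.42) and *Bik* 0.438 and 0.188. Granulocyte markers were also high in *Bcor-/-* LSK, where the 8 in the table summed to 17107 and 24669 FPKM against 3350, 12586 and 3375 in WT. Within WT, replicate 2, which had 12586, had 35.7 FPKM of *Bid* and 11.2 of *Bcl2l11*, the highest and the lowest WT values of these genes. The other WT libraries had 35.4 and 34.8 FPKM of *Bid*, close to that of replicate 2, and 18.3 and 13.8 of *Bcl2l11*. T and NK cell markers summed to 453 and 619 FPKM in *Bcor-/-* and to 211 to 239 in WT. The LSK gate markers summed to 850 and 574 FPKM in *Bcor-/-* (WT 1114 to 1300) and the erythroid markers to 242 and 316 (WT 87.6 to 184). The part of any of these lists in the changes was not tested.

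With *Dnmt3a* alone deleted, 0 of 9 members were called in LSK, where limma called 0.443% of all tested genes, and 0 had an unadjusted p under 0.05. The log2 fold changes lay between -0.29 for *Bax* and 0.22 for *Bbc3*. *Bax* had 33.5, 31.3 and 46.9 FPKM and *Bid* 32.9, 33.1 and 31.9, the latter below every WT library but by less than the fold threshold (-0.11). None of the alternatives made a call among the members.

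Against *Bcor-/-*, the double knockout differed in 6 of 9 members in LSK, where 30.6% of all tested genes were called. *Bcl2l11* (log2 fold change 1.66, adjusted p = 0.0021), *Pmaip1* (2.08, adjusted p = 0.034) and *Bmf* (2.57, adjusted p = 0.00038) were higher. *Bid* (-0.83, adjusted p = 0.0076), *Bak1* (-0.65, adjusted p = 0.050) and *Bad* (-0.66, adjusted p = 0.071) were lower. *Bcl2l11* lay below WT in *Bcor-/-* and above it in the double knockout, with no overlap among the 3 groups. Over all genes 51.6% of these calls were higher, and 41.4% after median centring, which kept the direction of each called member. This comparison and that against WT share the double knockout libraries. Without double knockout replicate 1 *Bid* was -0.57 and not called, nor was *Bad*, at -0.64, and without replicate 2 *Bak1* was -0.34 and not called. The calls of *Bak1* and *Bad* were also lost without *Bcor-/-* replicate 2, at -0.40 and -0.45, and with 1 variance per genotype, and that of *Pmaip1* without *Bcor-/-* replicate 1.

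**Figure D2:**
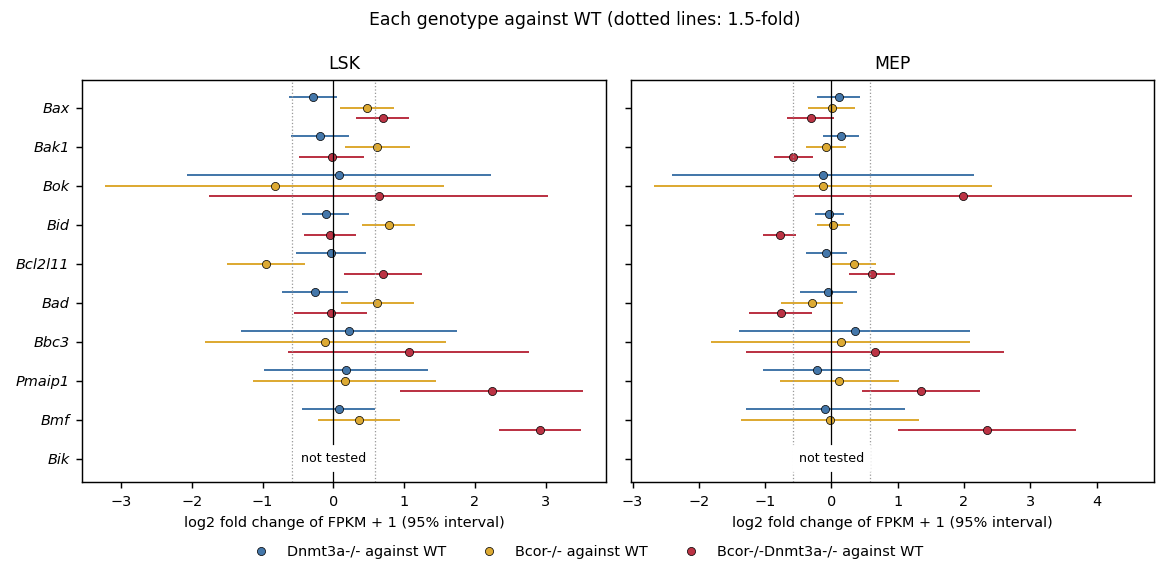
Log2 fold change of FPKM + 1 of each tested member against WT, with 95% intervals, for *Dnmt3a-/-*, *Bcor-/-* and the double knockout, LSK in the left and MEP in the right panel, and dotted lines at 1.5-fold. *Bmf* in LSK stands farthest from 0, at 2.93, while the intervals of *Bok* and *Bbc3* cross 0 in every comparison, and *Bcl2l11* in LSK lies at -0.95 in *Bcor-/-* and at 0.70 in the double knockout.

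In double knockout MEP, *Bcl2l11* and *Pmaip1* rose while *Bid* and *Bad* fell. These are 4 of the 7 members that reached the minimum without the double knockout libraries, where 30.9% of all tested genes were called, 18.5% higher and 12.4% lower. *Bok* and *Bmf* reached it only where they were high, so that their values in MEP are a description. The effectors *Bax* and *Bak1* were not called. *Bax* had 70.5 and 78.9 FPKM, below the WT values of 85.7, 113.6 and 82.4 (log2 fold change -0.31, adjusted p = 0.14). *Bak1* had 45.4 and 38.8 FPKM, with WT at 61.8, 71.7 and 56.8. Its log2 fold change of -0.58 (SE 0.12, adjusted p = 0.0089) was just short of the fold threshold, which it passed after quantile normalization, at -0.62, and after centring each library on its median, at -0.74. *Bok* had 33.1 FPKM in replicate 1, which was 43.8 times the WT mean, and 0.297 in replicate 2, under the WT values of 0.327, 1.48 and 0.466 (log2 fold change 1.98). Without replicate 2 it was 4.34 and without replicate 1 it was -0.38.

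*Bid* showed the clearest decrease in MEP, to 29.0 and 24.9 FPKM, or 0.617 and 0.530 times the WT mean of 46.9. Its log2 fold change of -0.78 (SE 0.10, adjusted p = 0.0013) kept its call under every alternative but a fold change above 2. *Bad* had 24.0 and 15.1 FPKM, where WT had 35.1, 36.5 and 28.1 (-0.76, SE 0.20, adjusted p = 0.021), and was not called without replicate 2, at -0.45. *Bmf* stood higher in both double knockout libraries, with 16.4 and 2.22 FPKM against 0.462, 0.481 and 0.492 in WT. These were 34.3 and 4.64 times the WT mean, and the log2 fold change was 2.34, or 1.12 without replicate 1 and 3.56 without replicate 2. *Pmaip1* had 8.13 and 9.41 FPKM, with 4.23, 1.67 and 3.01 in WT (1.35, SE 0.39, adjusted p = 0.029). Of the called members *Bcl2l11* had the closest double knockout values, at 16.4 and 16.8 FPKM against 9.35, 11.9 and 10.4 in WT (0.61, SE 0.14, adjusted p = 0.013). Its call was lost after quantile normalization and after median centring, at 0.46 and 0.45, and without WT replicate 1, at 0.53. With 1 variance per genotype *Bid* kept its call in MEP and *Bcl2l11*, *Pmaip1* and *Bad* lost theirs. *Bbc3* was split between the mice as in LSK, at 1.78 and 34.2 FPKM around WT values of 6.86, 4.68 and 4.55, so that its log2 fold change was 0.66 (SE 0.85), 2.49 without replicate 1 and -1.17 without replicate 2, called in either case. *Bik* was listed at 0 and 0.242 FPKM, below the WT values of 1.34, 1.67 and 0.955, and a listed 0 can be a failed estimate in these tables. Groups of double knockout and WT did not overlap for 6 of those 7 members, and for 50.5% of all tested genes.

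Over all tested MEP genes, 59.8% of the calls were higher in the double knockout, but 39.1% after quantile normalization, which moved the median log2 fold change from 0.02 to -0.17. The directions of the called members were kept under that scaling. Among the markers, 14 erythroid genes summed to 4453 and 97752 FPKM in double knockout MEP (WT 1214 to 1911, 6 called higher), 8 granulocyte genes to 6406 and 14084 (WT 287 to 737, 4 called higher), and 6 macrophage genes to 704.7 and 34.5 (WT 6.11 to 10.4, 4 of them reaching the minimum only there). The B cell markers summed to 1073 and 121 (WT 13.1 to 60.3, 5 called higher) and the megakaryocyte markers to 17.8 and 70.6 (WT 86.4 to 334, 2 called lower). The T and NK cell markers summed to 83.6 and 107 (WT 28.3 to 65.9), and the 1 that reached the minimum without the double knockout was not called. *Bok* and *Bmf* were higher in the mouse with the higher macrophage and B cell sums and *Bbc3* in the mouse with the higher erythroid sum, in both cell types. Their part in the members' values was not tested.

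In *Bcor-/-* MEP 0 of these 7 members were called, where limma called 2.76% of all tested genes, and 1 member had an unadjusted p under 0.05. This was *Bcl2l11*, at 12.1 and 15.1 FPKM, above every WT library by a log2 fold change of 0.33 (adjusted p = 0.89). *Bid* (47.2 and 48.7), *Bax* (96.5 and 89.6) and *Bak1* (62.2 and 57.1) lay within the WT ranges. *Bad* had 26.5 and 27.0 FPKM, just below the lowest WT value of 28.1 (-0.30). In *Dnmt3a-/-* MEP 0 of the 7 were called, where 0.412% of all tested genes were, and 0 had an unadjusted p under 0.05. Against *Bcor-/-*, the double knockout MEP differed in 2 of the same 7 members, with 27.9% of all genes called, 59.4% of them higher but 36.2% after quantile normalization. *Bid* was lower (-0.81, adjusted p = 0.0022) and *Pmaip1* higher (1.23, adjusted p = 0.065), a call that was lost in 4 alternatives, among them 1 variance per genotype and leaving out double knockout replicate 2, at 1.14. *Bcl2l11* was not among them (0.28, 95% interval -0.08 to 0.63).

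**Figure D3:**
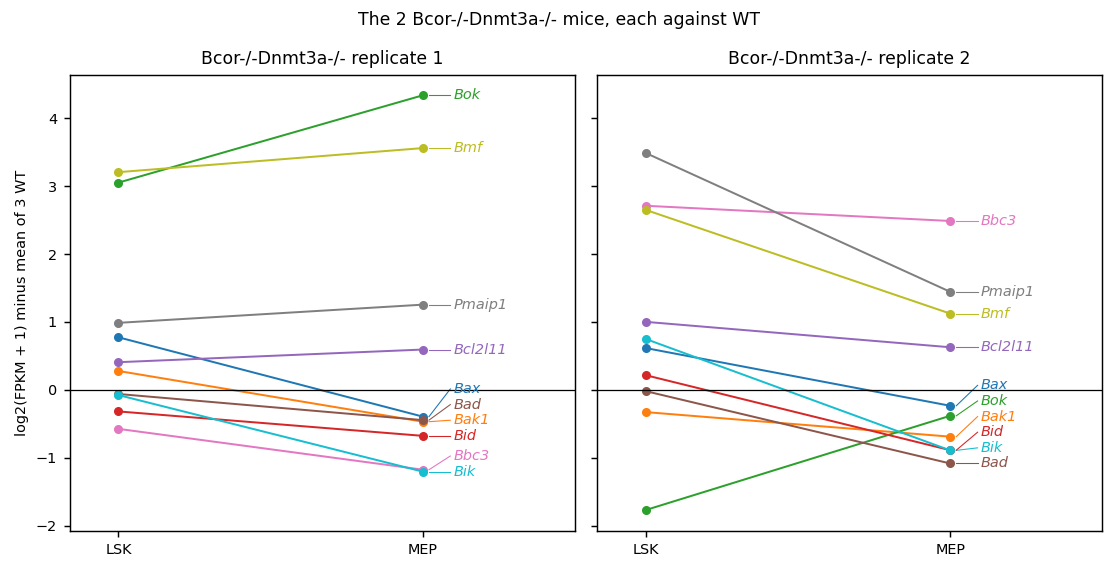
Log2(FPKM + 1) of each member in LSK and MEP of the 2 double knockout mice, minus the mean of the WT libraries of the same cell type, with 1 panel per mouse and 1 line per member. Replicate 1 carries *Bok* at 3.05 and 4.34 and *Bbc3* below 0, and replicate 2 *Bbc3* at 2.71 and 2.49 and *Bok* below 0, while *Bmf*, *Pmaip1* and *Bcl2l11* lie above 0 in every library.

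The double knockout mice thus differed in which members were high, and each mouse had its own pattern in both of its libraries. In replicate 1 *Bok* had 42.3 FPKM in LSK and 33.1 in MEP, and *Bbc3* 2.53 and 1.78. In replicate 2 *Bok* had 0.533 and 0.297 and *Bbc3* 33.4 and 34.2. *Bmf* was higher in replicate 1 (19.4 and 16.4) than in replicate 2 (12.9 and 2.22), and *Pmaip1* was higher in replicate 2 (63.6 and 9.41) than in replicate 1 (10.4 and 8.13). Of the 4 genes next to *Bok* in the genome, *Stk25*, *Thap4* and *Atg4b* also lay above every WT library in LSK of replicate 1, by less than *Bok* did. The share of all genes that lay above WT in this library is not given here, so this count has no background. With both double knockout libraries, 49.6% of all tested LSK genes had groups that did not overlap WT, in either direction. *Stk25* had 44.8 FPKM (WT at most 35.3), *Thap4* 21.0 (WT at most 19.6) and *Atg4b* 30.0 (WT at most 22.5), and *Farp2*, at 0.498, lay within WT. In MEP of the same mouse none of the 4 lay above WT. In replicate 2, where *Bok* was low, *Atg4b* also lay above WT, at 24.9 FPKM in LSK and 67.3 in MEP (WT at most 46.2), and *Farp2* did in LSK, at 1.27. With 1 mouse on each side there is no test of such a difference, and what sets the mice apart was not tested.

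Whether an effect differed between the cell types was tested on the LSK minus MEP difference of each mouse. For the double knockout the effects on *Bax* and *Bid* were more positive in LSK, which are 2 of the 7 members that reached the minimum in both cell types without the double knockout libraries. Over all tested genes, 20% had an adjusted p under 0.05. The difference of effects was 1.01 for *Bax* (SE 0.20, adjusted p = 0.013), since *Bax* rose in LSK and lay below WT in MEP. It was 0.73 for *Bid* (SE 0.21, adjusted p = 0.038), which straddled WT in LSK and fell in MEP. For *Bok*, which entered the MEP table of tested genes only through 1 double knockout library, the difference was -1.34 and is given as a description, and its call was lost in 9 of 10 alternatives. In a fit with 1 variance per genotype none of the members passed, with adjusted p-values of 0.32 for *Bax* and 0.33 for *Bid*, and with any single WT mouse left out *Bax* passed but *Bid* did not. The *Bid* difference was 0.36 (adjusted p = 0.097) without double knockout replicate 2. *Bcl2l11* (0.09, SE 0.28) and *Pmaip1* (0.89, SE 0.63) did not pass. For *Bcor-/-* 0 of these 7 members passed in limma's test, where 0.251% of all tested genes did. An unadjusted p under 0.05 was found for 5 of them and for 17.9% of all tested genes. The largest of these was *Bcl2l11* at -1.29 (SE 0.28, adjusted p = 0.082), the gene that fell in LSK and lay above WT in MEP. With 1 variance per genotype *Bcl2l11*, *Bid* and *Bak1* passed. For *Dnmt3a-/-* 0 members and 0% of all genes passed in limma's test, and 1 member and 3.90% of all genes had an unadjusted p under 0.05.

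The partners of these proteins were counted in lists chosen by function. Of the 8 anti-apoptotic Bcl2 genes, 6 were tested in LSK and 3 rose in the double knockout, where 15.0% of all tested genes did, with a median log2 fold change of 0.68 against 0.02 over all tested genes. *Bcl2l1*, which encodes BCL-XL, had 35.1 and 39.7 FPKM there, with 9.08, 9.39 and 10.5 in WT (1.85, SE 0.15, adjusted p = 7.8e-05). *Bcl2a1b*, 1 of the A1 genes whose near-identical copies may share reads, had 11.2 and 25 FPKM, and 0.967, 5.49 and 0 in WT (2.93, SE 0.68, adjusted p = 0.011). In MEP 3 of the 4 that reached the minimum without the double knockout libraries rose, where 18.5% of all tested genes did, with a median of 1.05 against 0.02. *Bcl2l1* had 22.9 and 295.6 FPKM, and WT 4.69, 6.17 and 5.89 (3.68, SE 0.81, adjusted p = 0.010), and *Bcl2a1b*, which reached the minimum there only through the double knockout, had 9.61 and 4.42 against at most 1.69 in WT. In *Bcor-/-*, limma called 0 of these genes in either cell type, where it called 13.2% of all tested genes in LSK and 2.76% in MEP.

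Of 9 other Bcl2-like or BH3-containing genes, 7 were tested, of which 1 rose and 1 fell in double knockout LSK and 1 rose and 0 fell in MEP. Over all tested genes, 28.3% were called in LSK and 30.9% in MEP. *Bnip3l*, which serves mitochondrial removal in maturing red cells, rose in the double knockout to 43.7 and 73.7 FPKM in LSK (0.64, adjusted p = 0.037; WT 32.7 to 38.7) and to 52.4 and 535.7 in MEP (1.94, adjusted p = 0.076; WT 41.2 to 46.2), and *Bcl2l14* fell in LSK (-0.97, adjusted p = 0.029). Of 13 genes of cytochrome c release and the apoptosome, 1 rose and 1 fell in LSK, where 15.0% of all tested genes rose and 13.3% fell. In MEP 1 rose and 7 fell, where the shares were 18.5% and 12.4%, with a median log2 fold change of -0.61 against 0.02 over all tested genes. *Endog*, a mitochondrial nuclease, had 2.86 and 4.14 FPKM in double knockout MEP against 6.92 to 11.6 in WT (-1.08, adjusted p = 0.016). In LSK the called genes were *Casp9* (0.67, adjusted p = 0.0077) and *Cycs* (-0.75, adjusted p = 0.11), the cytochrome c gene, which has near-identical pseudogenes and was listed at no more than 2.18 FPKM in WT. Among 12 regulators of BH3-only genes, 11 were tested, of which 2 rose and 0 fell in LSK and 1 rose and 1 fell in MEP. The shares of all tested genes called were again 28.3% and 30.9%. *Foxo1*, a transcription factor known to induce *Bcl2l11*, rose in LSK from 4.86, 5.04 and 4.49 FPKM to 45.8 and 36.5 (2.86, SE 0.18, adjusted p = 3.5e-05). It also rose in MEP, to 30.1 and 5.90 from at most 3.08 (1.94, adjusted p = 0.020). *Mdm4* rose in LSK (0.73, adjusted p = 0.0052) and *Trp53* fell in MEP, to 76.5 and 90.3 FPKM from 113.8 to 139.2 (-0.64, adjusted p = 0.0050).

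**Figure D4:**
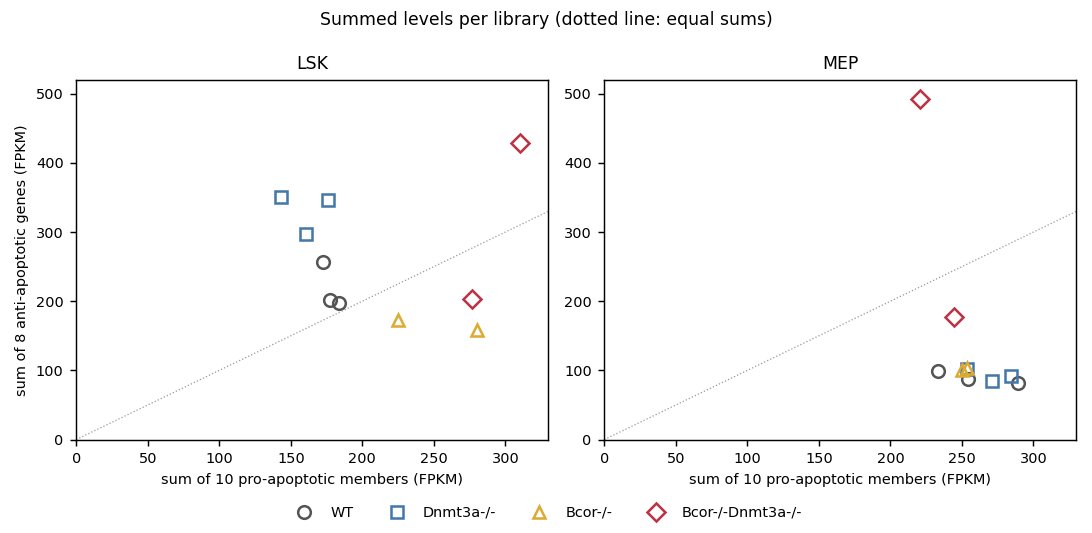
Summed FPKM of the 10 pro-apoptotic members (horizontal) and of 8 anti-apoptotic Bcl2 genes (vertical) in each library, LSK in the left and MEP in the right panel, with symbols for the genotypes and a dotted line where the sums are equal. In MEP every library of the other genotypes has an anti-apoptotic sum of at most 103 FPKM, and the double knockout libraries have 177 and 492 at a pro-apoptotic sum of 245 and 221.

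Summed over the 10 members, LSK libraries of the double knockout had 276.7 and 310.0 FPKM and those of *Bcor-/-* 224.8 and 280.4. The WT libraries summed to 172.7 to 183.8 and the *Dnmt3a-/-* libraries to 143.5 to 175.8. The anti-apoptotic sum in the same LSK libraries was 203 and 428 FPKM in the double knockout and 172 and 158 in *Bcor-/-*, with WT at 197 to 257 and *Dnmt3a-/-* at 297 to 351. Per library, the anti-apoptotic sum divided by the pro-apoptotic one was 0.734 and 1.38 in the double knockout, 0.767 and 0.564 in *Bcor-/-* and 1.85 to 2.45 in *Dnmt3a-/-*, with WT at 1.07 to 1.49. The *Bcor-/-* libraries lay below and the *Dnmt3a-/-* libraries above every WT library, and the double knockout overlapped WT. Most of the *Dnmt3a-/-* sum was *Mcl1*, at 253, 301 and 298 FPKM with 213, 146 and 156 in WT (0.73, adjusted p = 1), which passed the call by its unadjusted p. In MEP the ratio was 0.282 to 0.427 in WT and 0.724 and 2.23 in the double knockout, where the pro-apoptotic sum was 245 and 221 FPKM beside 233 to 289 in WT. These sums describe RNA and were not tested. Exons of *Bax*, *Bak1* and *Bad* overlap those of other annotated genes, whose reads may be counted with them. For *Bak1* and *Bad* the other gene lies on the opposite strand, and it is not stated whether the libraries kept the strand. For *Bax* it lies on the same strand, so that the strand could not separate the reads.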

How the data were processed

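Polyadenylated RNA of sorted LSK and MEP cells was sequenced in 20 libraries. The authors deposited FPKM of 24315 genes in 1 table per cell type, and the submitters' processing notes name STAR 2.5.1b, SAMtools 1.9, Cufflinks 2.2.1 and the build mm9, without their order. Depth and counting error are unknown without read counts. Groups were taken from the labels. FPKM were converted to log2(FPKM + 1), a minimum of 1 FPKM was set on each gene's mean of its 10 values (11952 genes in LSK, 10933 in MEP), and all 4 genotypes entered 1 limma fit (limma 3.58.1, R 4.3.3) with a mean-variance trend. The thresholds, p under 0.05 and fold change above 1.5, are those of the study's methods, which name neither test nor adjustment. The model was tested on simulated data, in which all genotypes had the same spread, taken from the WT and *Dnmt3a-/-* libraries. That simulation could not show what the wider spread of the double knockout libraries does to the calls. Effects were compared between cell types over 10773 genes on within-mouse differences, the pairing coming from mouse names in the labels (r of the deviations 0.00065 to 0.559). Python 3.11.15 with matplotlib 3.10.9 drew the figures.

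The members and all lists were chosen with earlier results of these data known. All 10 members are named, and of each other list the 2 called genes with the largest log2 fold change between double knockout and WT in each cell type, of which 1 is not reported here. *Mcl1* and the neighbours of *Bok* were named after their values were seen. The alternatives were a pseudocount of 0.1, no minimum, a minimum of 5 FPKM, quantile normalization, median centring, a fit of only the compared genotypes, a replicate block, no trend, 1 variance per genotype, the adjusted p, a fold change above 2, and leaving out each library. P-values of the main fit rest on a spread between libraries that all genotypes share, not on that of the compared groups alone. In each cell type 1 *Bcor-/-* library carries the names of 2 mice. Promoter sequences and starts come from RefSeq on GRCm38.p6, a build other than that of the tables, and gene overlaps from GENCODE vM21.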

Additional observations from a re-analysis of the deposited data

Results flagged for a closer look

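The effect of the double knockout differed by cell type within mice for *Bax* and *Bid*, by limma's test of the difference itself on the log2(FPKM + 1) scale, and *Bok* also met the threshold. The LSK effect exceeded the MEP effect by 1.009 for *Bax*, where LSK rose and MEP lay below WT in each of the 2 mice. It exceeded it by 0.7316 for *Bid*, which fell in MEP and lay on both sides of WT in LSK. For *Bok* the difference was -1.336, but *Bok* was tested in MEP only because 1 double knockout library was high, and its call was lost in 9 of 10 alternatives. That of *Bid* was lost in 6 of 10 and that of *Bax* in 1 of 10. No group had 4 or more libraries, so single libraries were not screened for outlying values.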

How the results depend on the processing

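Among the values of single members under alternatives, 1298 stayed on their side of the threshold, some of the uncalled ones near 0 changing sign within the replicate spread, 68 lost and 28 gained a call, 17 others moved beyond the replicate spread, and 4 reversed. The reversals came from leaving out a double knockout library: over the libraries left out, *Bok* against WT in LSK ranged from -1.77 to 3.05 and against *Bcor-/-* from -0.94 to 3.88, and *Bbc3* in MEP from -1.17 to 2.49 and from -1.31 to 2.35. Called members of double knockout LSK went from 4 to 2 with 1 variance per genotype and 2 at a fold change above 2. In *Bcor-/-* LSK they went from 4 to 2 after quantile normalization, 2 with the adjusted p, 0 at a fold change above 2, and 2 to 4 with a library left out. Double knockout against *Bcor-/-* LSK went from 6 to 3 at a fold change above 2. *Bmf* reached the minimum of 1 FPKM in MEP only through the double knockout libraries, so its calls there are a description. In double knockout MEP, *Bmf* counted, called members went from 5 to 3 with a minimum of 5 FPKM, which removes low members, and to 2 with 1 variance per genotype and 2 at a fold change above 2. Against *Bcor-/-* MEP they went, again with *Bmf*, from 3 to 1 with that minimum, 5 after median centring, and 2 to 6 with a library left out. Members whose double knockout effect differed between cell types, *Bok* counted, went from 3 to 0 with 1 variance per genotype, 1 with the replicate block, and 1 to 5 with a mouse left out, and in *Bcor-/-* from 0 to 3 with 1 variance per genotype. Apart from the rules and filters that shrink a list by construction, the cause was not tested.

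Replicate numbers name different mice across genotypes (r of same-numbered deviations -0.193 to 0.336), so they pair nothing. With the replicate block the counts of called members against WT stayed at 4 in double knockout LSK and 4 in *Bcor-/-* LSK, and went from 5 to 6 in double knockout MEP, *Bmf* counted, where *Bak1* was added at -0.60. Over all genes, a fold change above 2 left 1973 calls in double knockout LSK (3383 before) and 1727 in MEP (3376), and 1 variance per genotype left 1980 in MEP. In *Bcor-/-* the adjusted p left 690 of 1581 calls in LSK and 7 of 302 in MEP, and in *Dnmt3a-/-* 0 of 53 and 0 of 45, while 1 variance per genotype gave 121 and 78. A fold change above 2 left 516 calls of *Bcor-/-* in LSK and 118 in MEP, 19 and 14 of *Dnmt3a-/-*, and 1952 and 1525 of the 3654 and 3045 calls between double knockout and *Bcor-/-*. *Bcor-/-* had 885 in LSK without replicate 2 and, in MEP, 199 without replicate 1, 166 with a minimum of 5 FPKM and 482 with 1 variance per genotype. *Dnmt3a-/-* had 33 and 29 with that minimum, 105 and 89 in a fit of the compared genotypes, 35 in LSK without replicate 2, and in MEP 121 without replicate 1, 78 with a pseudocount of 0.1, and over 2 times its 45 without WT replicate 2. Double knockout against *Bcor-/-* in MEP had 1946 with 1 variance per genotype and 2010 in a fit of the compared genotypes. In a fit without 1 library of a pair, the remaining one is assumed to vary like the other genotypes.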
